A study of Mus musculus with 3 samples.

Results

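The 10 genes Fos, Fosb, Fosl2, Jun, Junb, Jund, Batf, Jdp2, Atf3 and Creb5, out of 21887 protein-coding genes placed on the chromosomes, were taken by name as the AP-1 genes with Creb5. Their accessible regions were those found between 50 kb before and 50 kb after the gene, a stretch called the window here. With each region counted once, the windows held 435 of the 182233 regions in the 0 h list, 426 of 178055 in the 6 h list and 437 of 145044 in the 72 h list. The assay was ATAC-seq, where a transposase inserts sequencing adapters into open chromatin, and the cells were the mouse ECOMG myeloid progenitor line. All 3 libraries carried the genotype FKBP12F36V_NIPBL, a degron tag on the cohesin loader NIPBL, and came from cells grown with GM-CSF and estradiol. The group at 0 h had no dTAG, a ligand that brings the FKBP12F36V tag to the cell's protein degradation machinery, and the groups at 6 h and 72 h had dTAG. With 1 library in each group, differences have no replicate check and were not tested. Whether the line is 1 clone is not given in the sources used here, and the effects of dTAG, of time and of a single library cannot be told apart because no untreated library at 6 h or 72 h was analysed.

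AP-1 is a family of dimeric transcription factors whose subunits join through a leucine zipper and bind DNA with the adjoining basic region. Fos proteins bind DNA well only with a Jun partner, whereas Jun proteins also pair with each other, and Batf, Jdp2 and Atf3 compete for the same partners. Many of the genes are immediate early genes, which cells switch on within minutes of a growth factor, stress or inflammatory signal, and Jun takes part in the differentiation of monocytes. Creb5 belongs to the related ATF2 group of factors, which bind the cyclic AMP response element (CRE) and can pair with Jun.

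The libraries were described by their peak lists, and read totals were not used here. The lowest fold in a list, that is the summit of a region over the background of its own library, ranged from 3.01 to 3.12, so weaker signal is not listed. Markers were looked up at annotated starts, and over all coding genes with one 61.5%, 61.2% and 57.5% had a region within 1 kb. Of the 10 myeloid progenitor markers, 8 had an annotated start. Of these, 7 had a region within 1 kb of it at 0 h and at 6 h and 6 at 72 h. Mpo was without one in all 3 lists and Kit at 72 h. Of the 7 mature neutrophil markers 6, 6 and 7 had one. Of the 4 erythroid and megakaryocyte markers 2, 3 and 3 had one. Only 2 of the 5 monocyte and macrophage markers had an annotated start, and 1 of these had a region at each time, with Marco at none. Of the 3 mast cell markers, Cpa3 alone had one, at 6 h. Of the 4 B and T cell markers 3 had an annotated start, and of the 4 non-blood markers 2 did. None of these had a region.

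All 10 genes were open at their starts at every time. Each had a region within 1 kb of an annotated start in all 3 lists, where the same held for 61.5% (0 h), 61.2% (6 h) and 57.5% (72 h) of the 17492 coding genes with an annotated start. All 10 were also counted with 500 bp around the start and with regions of fold 10 or more alone. The 5 sequences that follow are the 250 bases before a start. They are those of the 4 starts that hold a full-length match to a form named below, with Creb5 at both of its annotated starts, and that of Fos. The Fos start holds the short form at 2 places. The 5 sequences were read from RefSeq promoters (GRCm38.p6, the assembly of mm10), 5′ to 3′ on the gene's strand. All 10 genes were found in that table, with 13 starts. Capitals mark matches to the AP-1 site TGANTCA, the CRE TGACGTCA, its variants TTACGTCA and TGACATCA, and the short form TGACG, which also lies within the CRE. Both strands were searched. Other forms of these sites were not searched, so unmarked letters can hold them.
Fos, chr12:85473640-85473889, plus strand: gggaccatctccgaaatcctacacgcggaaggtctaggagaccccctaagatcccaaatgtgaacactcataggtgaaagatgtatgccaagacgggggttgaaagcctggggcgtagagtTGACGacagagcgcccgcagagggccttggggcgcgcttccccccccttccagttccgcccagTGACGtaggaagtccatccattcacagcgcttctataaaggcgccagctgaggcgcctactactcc
Jun, chr4:95052223-95052472, minus strand: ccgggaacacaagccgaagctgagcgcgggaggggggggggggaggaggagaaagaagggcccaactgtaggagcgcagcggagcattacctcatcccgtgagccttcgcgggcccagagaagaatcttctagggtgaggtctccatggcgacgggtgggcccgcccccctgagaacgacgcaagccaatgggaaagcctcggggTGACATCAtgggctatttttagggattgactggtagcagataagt
Atf3, chr1:191183334-191183583, minus strand: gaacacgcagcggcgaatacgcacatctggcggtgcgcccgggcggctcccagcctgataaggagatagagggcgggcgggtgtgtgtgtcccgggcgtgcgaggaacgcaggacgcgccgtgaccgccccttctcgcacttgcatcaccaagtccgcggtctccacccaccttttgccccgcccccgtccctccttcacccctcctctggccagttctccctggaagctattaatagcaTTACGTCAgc
Creb5, first start, chr6:53287053-53287302, plus strand: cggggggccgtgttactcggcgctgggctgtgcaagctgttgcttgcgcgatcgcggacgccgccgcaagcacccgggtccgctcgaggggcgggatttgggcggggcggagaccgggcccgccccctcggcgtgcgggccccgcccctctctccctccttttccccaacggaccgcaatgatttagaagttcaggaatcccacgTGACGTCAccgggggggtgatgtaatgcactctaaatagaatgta
Creb5, second start, chr6:53573124-53573373, plus strand: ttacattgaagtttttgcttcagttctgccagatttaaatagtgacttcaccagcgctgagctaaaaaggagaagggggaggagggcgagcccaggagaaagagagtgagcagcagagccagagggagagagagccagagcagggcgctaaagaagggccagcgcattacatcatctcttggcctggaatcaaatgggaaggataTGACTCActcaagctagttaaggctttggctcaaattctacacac
In all 3 lists, all 250 bases of each of these 5 sequences lay within listed regions. This did not hold for every member. In order of time, 146, 146 and 170 of the 250 bases were covered at Fosl2 and 114, 111 and 123 at Batf. At Jund 53, 122 and 109 were covered, and at Fosb 250, 170 and 152.

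Of the 13 starts, 1 each held the CRE (Creb5, first start), TTACGTCA (Atf3), TGACATCA (Jun) and the AP-1 site (Creb5, second start). Over the 21263 promoters of coding genes, the CRE was found in 1.92%, TTACGTCA in 0.470%, TGACATCA in 2.86% and the AP-1 site in 6.13%. The short form TGACG was found at 7 of the 13 starts, each of a different gene (Fos, Fosb, Junb, Batf, Jdp2, Atf3 and Creb5), and in 20.2% of all promoters. A match in the letters is a description and does not show that a factor was bound.

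Start regions differed widely in height among the members, with the Jun genes high at every time and Batf at the bottom. The highest region within 1 kb of a start was ranked by its fold among the 9882 genes that had such a region in all 3 lists. The rank is given as a percentile, and the region ranked need not be the same one in each list. Folds of different libraries are the authors' own values on separate scales, so they are set side by side only as a description. Over those 9882 genes the median change in rank, regardless of direction, was 3.12 points from 0 h to 6 h and 5.65 points from 0 h to 72 h. Over the 10 members the median ranks were 53.2, 63.7 and 54.2 in order of time.

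**Figure D1:**
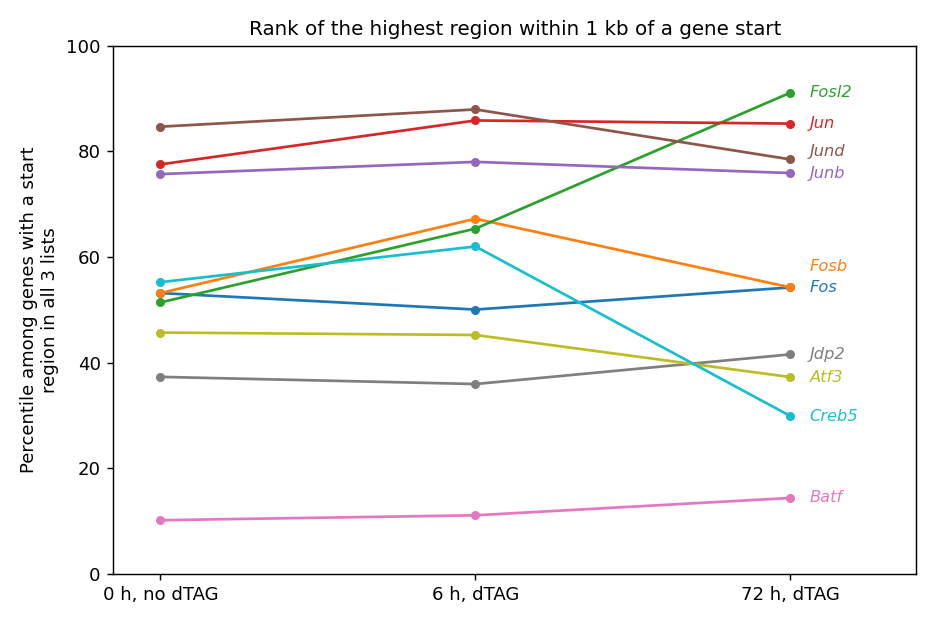
Percentile of the highest region within 1 kb of a start, among the 9882 genes with such a region in all 3 lists, for the 10 genes at 0 h without dTAG and at 6 h and 72 h with dTAG, 1 library per time. Fosl2 goes from 51.4 to 91.2 and Creb5 from 55.2 to 29.9, while Batf stays lowest.

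Among the Jun genes, which encode the partners needed by every Fos protein, the start of Jun had folds of 111, 152 and 169 in the order 0 h, 6 h and 72 h and ranks of 77.6, 85.9 and 85.3. Junb, often an opponent of Jun in growth control, had folds of 108, 132 and 140 and ranks of 75.7, 78.0 and 75.9. The values at 0 h and 6 h came from a region with its summit 1125 and 1147 bp upstream, whose fold at 72 h was 126. The value at 72 h came from the region over the start, whose earlier folds were 95.2 and 119.8. Jund, the most evenly expressed of the Jun genes, had folds of 125, 158 and 148 and ranks of 84.7, 88.0 and 78.5. All 3 genes ranked above 75 at each time. At Jund that region began 567 bp after the annotated start at 0 h, and the region over the start itself had folds of only 4.54, 6.03 and 17.2.

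Among the Fos genes, Fos had folds of 74.8, 81.4 and 92.9 at its start and ranks of 53.2, 50.05 and 54.2. Fosb, a stress-induced paralogue, had folds of 74.8, 110 and 92.9 and ranks of 53.2, 67.3 and 54.2. Its value at 6 h came from a region of 2304 bp that reached from the gene body to 921 bp of the start. The regions nearer the start had folds of 69.3 and 77.6 at 6 h. Regions at the place of the 2304 bp region had folds of 86.2 at 0 h and 112 at 72 h. They lay more than 1 kb from the start and did not enter the ranks at those times, so the Fosb ranks compare different regions. Fosl2, which encodes the Fos-related factor Fra-2, had folds of 72.6, 106 and 192 and ranks of 51.4, 65.4 and 91.2. Its change from 0 h to 72 h, 39.8 points, was the largest among the 10 genes. The Fosl2 region concerned, at chr5:32134937-32136164 at 0 h, ended 308 bp before the annotated start, and the region over the start had folds of 14.4, 10.5 and 20.3.

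Batf and Jdp2 lack an activating domain of the Fos or Jun kind. Batf, a factor of lymphoid and dendritic cells, had folds of 17.4, 20.3 and 21.9 at its start, with ranks of 10.1, 11.1 and 14.3, the lowest of the 10 genes at each time. Jdp2, a repressor that pairs with Jun proteins, had folds of 55.2, 60.3 and 69.5 and ranks of 37.3, 35.9 and 41.6. Atf3, a stress-induced factor that restrains inflammatory genes, had folds of 65.8, 74.6 and 62.5 and ranks of 45.7, 45.2 and 37.2. The first start of Creb5 had folds of 77.1, 100.2 and 49.96 and ranks of 55.2, 62.0 and 29.9. Its change of -25.4 points from 0 h to 72 h was the most negative of the 10.

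**Figure D2:**
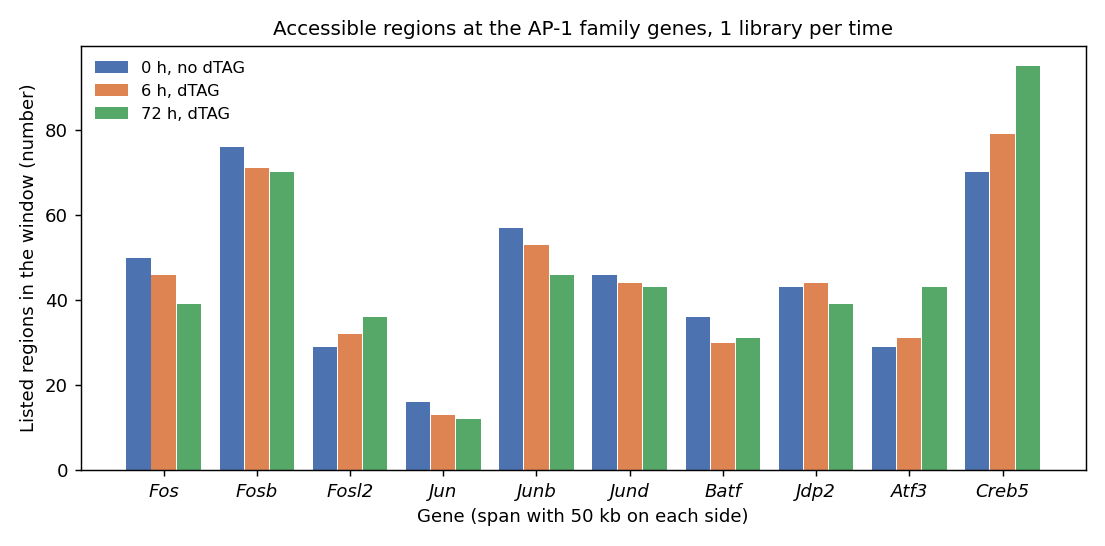
Number of listed regions in the window of each gene (span with 50 kb on each side) in the library at 0 h without dTAG and those at 6 h and 72 h with dTAG, 1 library each. Creb5 goes from 70 to 95 and Atf3 from 29 to 43, and Fos from 50 to 39.

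The early comparison was of 6 h of dTAG with the untreated library, soon after the degron ligand was added. The 10 windows held similar numbers of regions at both times, and their strong regions were mostly shared. Summed over the windows they held 452 regions at 0 h and 443 at 6 h, a ratio of 0.980 against 0.977 over all coding windows, so that the members' ratio was 1.003 (exact 95% interval 0.878 to 1.15) times that of all windows. No member held at least 1.5 times more or fewer regions, where 3.14% of 18986 windows held more and 4.79% fewer, or 0.577% and 0.904% of windows with at least 16 regions, the fewest of any member at 0 h. Of the 264 strong regions at 0 h, those at or above the median −log10 q of their list, 3 or 1.14% (Clopper-Pearson interval 0.235 to 3.28) had no overlapping region at 6 h, beside 2.48% of all strong regions. The 3 lay in the windows of Fos, Fosb and Jund. Of the 257 strong regions at 6 h, 2 or 0.778% (0.0944 to 2.78) had none at 0 h, beside 1.71% of all. Of the 480 stretches of the windows listed at 0 h or 6 h, joining overlapping regions, 318 or 66.3% were in both lists, beside 62.8% over the genome. The 2 strong regions of the 6 h list without overlap at 0 h lay within Creb5, with a fold of 8.29 each, 123307 and 162194 bp after its first start, and neither was listed at 72 h. These intervals cover counting error only and treat both counts as independent.

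The late comparison was of 72 h of dTAG with the untreated library, which serves in both comparisons. The members' windows kept their number of regions while the whole list was shorter. They held 452 regions at 0 h and 454 at 72 h, a ratio of 1.004 against 0.847 over all coding windows, which made the members' ratio 1.19 (1.04 to 1.35) times that of all windows. That sum combined 3 genes with more regions, Creb5, Atf3 and Fosl2, and 7 with fewer. Without Creb5 the relative ratio was 1.11 with an interval from 0.958 to 1.29, which includes 1. The interval also included 1 for the gene span alone (0.959 to 1.62), for lists of equal size (0.990 to 1.31) and for folds of 10 or more (0.896 to 1.31). By the 1.5-fold rule no member was called in either direction, where 1.84% of 18797 windows held more and 27.0% fewer. Windows with few regions pass that rule easily: among windows of at least 16 regions, a minimum chosen after the members' counts were seen, 1.24% held more and 15.8% fewer. Any increase at all was seen in 3 of the 10 members and in 23.0% of those windows.

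Strong regions of the windows were found again at 72 h in most cases. Of the 264 strong regions at 0 h, 19 or 7.197% (4.39 to 11.01) had no overlap at 72 h, beside 15.7% of all strong regions. Of the 244 strong regions at 72 h, 19 or 7.79% (4.75 to 11.9) had none at 0 h, beside 7.21% of all. Creb5 accounted for 10 of these 19 and Atf3 for 4. Without the Creb5 window the share of new regions was 4.52%. The lost regions were spread over 8 genes, with 6 in the Junb window and 4 in that of Creb5.

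The 3 lists were also joined into stretches of overlapping regions, 571 in the windows and 237342 in the genome. Of the stretches in the windows, 47.3% appeared in all 3 lists, 15.9% at 72 h only and 8.41% at 0 h and 6 h but not at 72 h. The shares over the genome were 41.3%, 10.0% and 15.2%. Atf3, Creb5 and Fosl2 had the largest shares of stretches listed at 72 h only, 28.9%, 28.5% and 23.8%, and Jun had none.

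**Figure D3:**
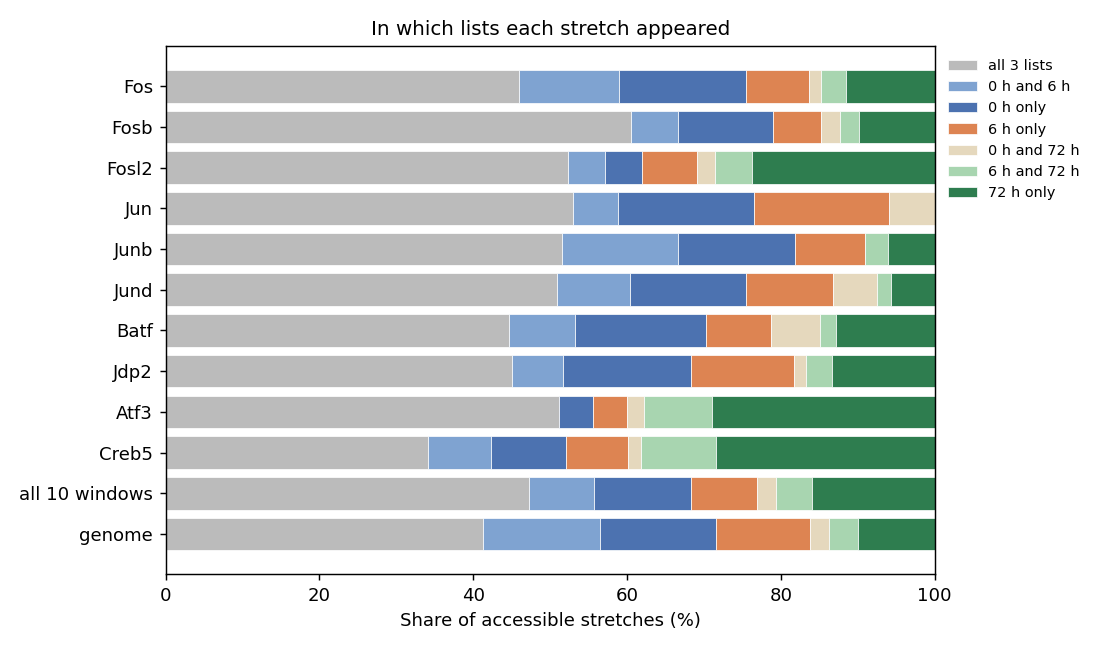
Share of accessible stretches (%) by the lists in which each appeared, for the 10 windows, all of them together with each stretch counted once, and the genome. The share listed at 72 h only is 28.9% at Atf3, 28.5% at Creb5 and 23.8% at Fosl2, against 10.0% in the genome.

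Stretches listed at all 3 times were ranked by their highest fold among the same 98075 stretches in each library. A shift of at least 20 percentile points, a size chosen after the data were seen, was taken as large. At 6 h, 10 of the 270 stretches in the windows ranked higher by this size and 6 lower, beside 4.21% and 4.45% of all stretches. At 72 h, 48 or 17.8% ranked higher and 27 or 10.0% lower, beside 16.3% and 16.1%. The share that ranked higher thus lay near that of all stretches. Creb5 held 13 of those higher and 3 of those lower, and Fosb held 1 and 8.

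Creb5 (chromosome 6, 53287226 to 53700364, plus strand, mm10) is by far the longest of the genes, with a span of 413139 bp, and no other coding gene lies in its window. Its regions numbered 70, 79 and 95, with a ratio of 1.36 (0.986 to 1.88) between 72 h and 0 h. They covered 14834, 15032 and 19396 bp. The library at 72 h was therefore highest both by number and by covered length, although the interval of the ratio included 1. Regions at 72 h that were strong and had no overlap at 0 h numbered 10, with folds of 10.1 to 25.8, and 6 of them were already listed at some strength at 6 h. Inside the gene lay 5 of them, 3 lay past its end and 2 upstream of the first start.

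Some of the new regions at Creb5 lay near regions that were listed throughout. The highest, at chr6:53456155-53456349 with a fold of 25.8, was 168960 bp into the gene. It followed a stretch 168349 bp into the gene with folds of 21.9, 30.9 and 83.5, whose rank among stretches was 66.7, 74.6 and 90.5. A stretch at chr6:53592224-53592712, 305165 bp in, had folds of 20.4, 23.4 and 109 and ranks of 64.4, 66.6 and 93.9. Both ranked higher at 72 h than at either earlier time. Past the gene end, where 3 new regions lay 417310 to 423507 bp from the first start, a stretch at 420695 bp had folds of 15.9, 21.1 and 79.6 and ranks of 55.3, 63.3 and 89.8. The highest internal stretch, at 82782 bp, was near the top of the ranking at every time, at 92.9, 92.8 and 97.1.

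Both starts of Creb5 had their lowest ranks at 72 h. The stretch over the first start, whose promoter holds the CRE printed above, ranked at 93.3, 94.6 and 82.0 among stretches. Its main region was 1592 bp long at 0 h, 1682 bp at 6 h and 1158 bp at 72 h, when a separate region of 267 bp followed it. The second start, whose promoter holds the AP-1 site, had folds of 50.6, 58.0 and 48.4 in a region of 1008, 984 and 448 bp, and ranks of 87.1, 87.4 and 81.4. At 72 h a separate region of 115 bp with a fold of 10.9 followed it. The region over each start was thus shortest at 72 h, but with the separate region the outer ends lay near those at 0 h. At the first start they were 53286762 and 53288353 at 0 h and 53286771 and 53288368 at 72 h. At the second they were 53572939 and 53573946, then 53572985 and 53573939. A stretch 203761 bp into the gene had folds of 25.7, 15.1 and 7.03 and ranks of 71.7, 51.1 and 24.0, the largest downward shift in the window. The 4 strong regions missing at 72 h all lay inside the gene, between 175688 and 268921 bp from the first start, with folds of 6.80 to 15.1, and all 4 were listed at 6 h.

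**Figure D4:**
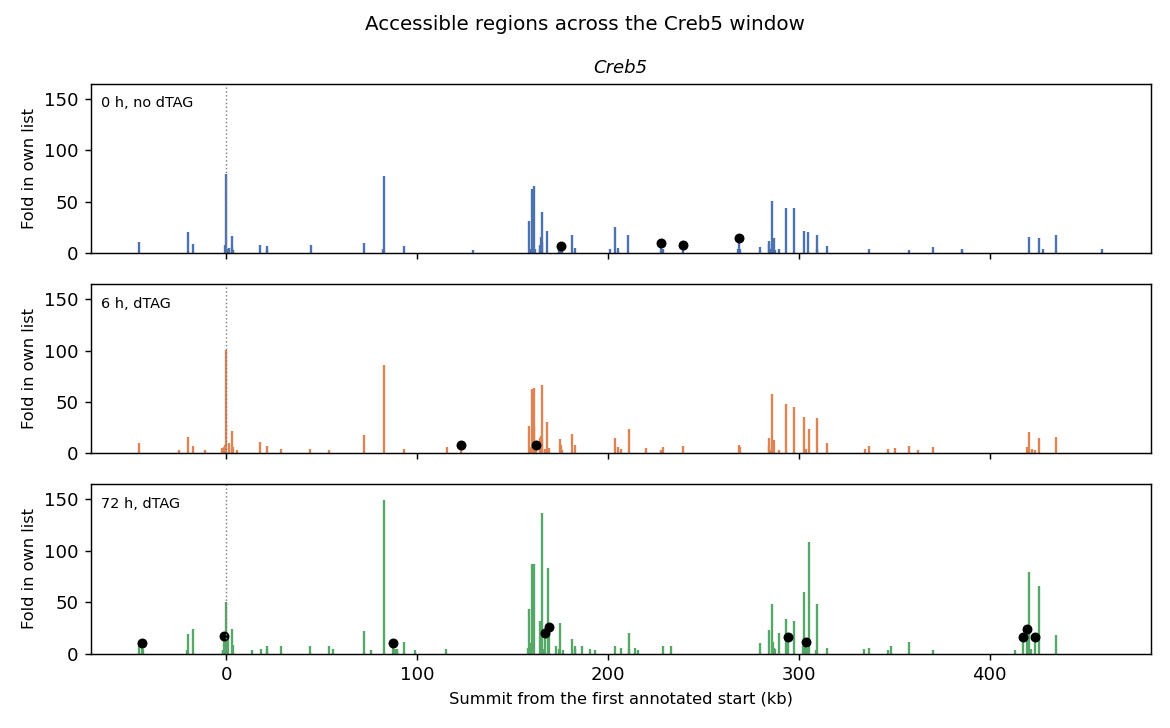
Listed regions of the Creb5 window by distance of the summit from the first annotated start (kb) and fold in the library's own list, at 0 h, 6 h and 72 h. Black dots mark strong regions without overlap at 72 h (top panel) or at 0 h (other panels), 4, 2 and 10 of them. The tallest line at 72 h, with a fold of 149, lies inside the gene and not at its start.

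Atf3 (chromosome 1, 191170296 to 191183333, minus strand) held 29, 31 and 43 regions; the ratio at 72 h was 1.48 (0.905 to 2.46), just short of the 1.5-fold rule. They covered 5860, 6411 and 9796 bp, 1.67 times as much at 72 h as at 0 h. Most of them, 24, 26 and 36, lay between genes. No strong region was lost at 72 h and 4 were new, all upstream of the start, from 32969 to 47267 bp, with folds of 10.9 to 18.0. They flanked a stretch 41350 bp upstream that was listed throughout, with folds of 49.1, 74.6 and 143 and ranks of 86.6, 91.0 and 96.8. A stretch 18011 bp upstream had folds of 60.5, 74.6 and 131 and ranks of 90.0, 91.0 and 96.0. The start stretch ranked at 91.2, 91.0 and 86.0, so both outranked it at 72 h and not at 0 h. The largest shift in the window was 59261 bp downstream of the start, past the gene, where folds were 4.54, 3.77 and 34.3 and ranks 6.65, 2.01 and 74.3. With 10 kb flanks, with lists of equal size or with folds of 10 or more, Atf3 passed the 1.5-fold rule at 72 h, and with the last 2 settings Creb5 passed it as well.

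Fosl2 (chromosome 5, 32136472 to 32157840, plus strand) held 29, 32 and 36 regions; the ratio at 72 h was 1.24 (0.740 to 2.10), and no other coding gene lies in its window. Covered length was 7040, 7177 and 8455 bp. Of its 22 stretches listed throughout, 6 ranked higher at 72 h by at least 20 points and 1 lower. One of the 6, at chr5:32192076-32192501, 55816 bp downstream of the start, had folds of 29.5, 50.5 and 143 and ranks of 75.6, 85.0 and 96.8. Another, 57977 bp downstream, had folds of 5.29, 9.80 and 19.5 and ranks of 11.4, 33.3 and 59.2. In both the 6 h rank lay between those at 0 h and 72 h. Strong regions at 72 h without overlap at 0 h numbered 2, both past the gene end, with folds of 9.37 and 14.8.

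**Figure D5:**
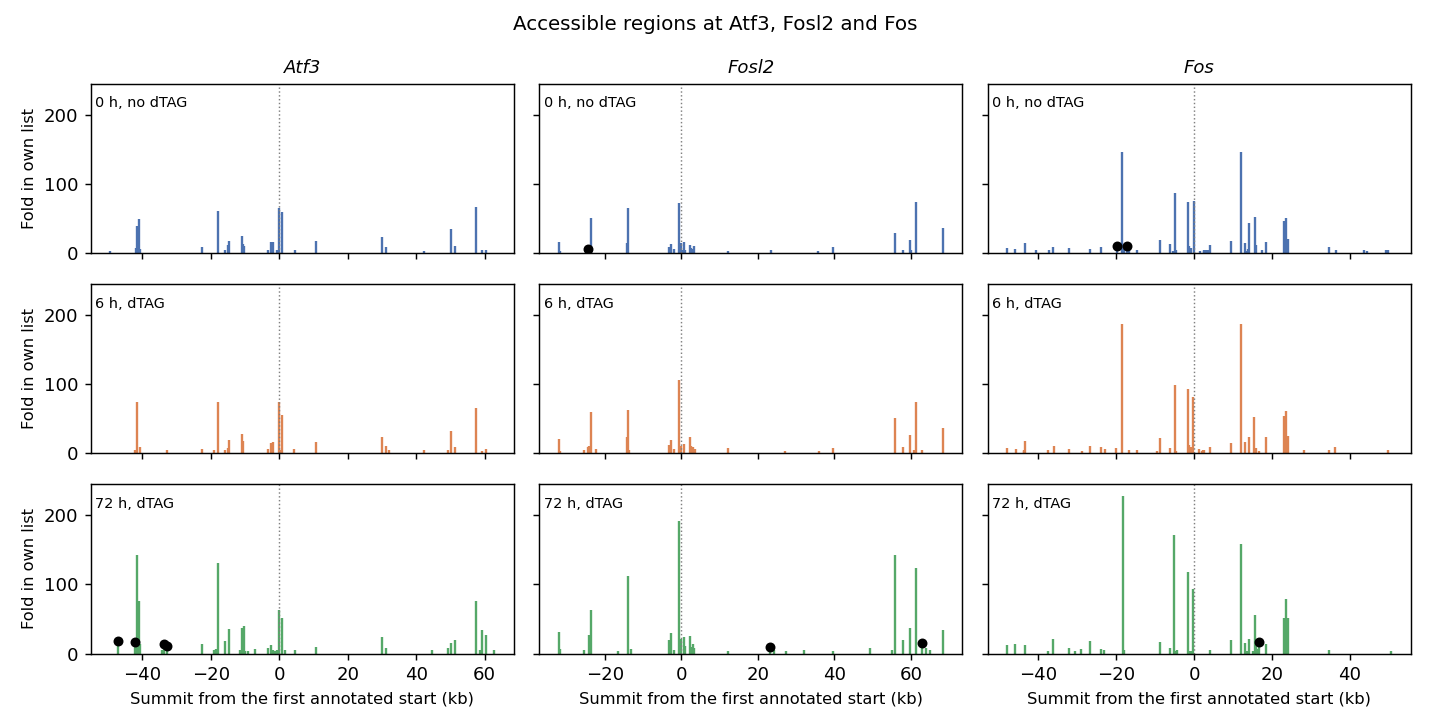
Listed regions of the Atf3, Fosl2 and Fos windows by distance of the summit from the annotated start (kb, downstream positive) and fold in the library's own list, at 0 h, 6 h and 72 h. Black dots mark strong regions without overlap at 72 h (top row) or at 0 h (other rows). At 72 h Atf3 has 4 dots, all upstream of the start, and Fosl2 has 2.

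Fos (chromosome 12, 85473890 to 85477274, plus strand) lay in a window with no other coding gene and held 50, 46 and 39 regions, so the ratio at 72 h was 0.780 (0.4996 to 1.21). The gene itself, outside its start, held 4, 4 and 0. None of these was strong, with folds of 3.02 to 5.29 at 0 h and 3.77 to 6.03 at 6 h, near the lowest listed. The highest regions lay away from the start at every time. One at chr12:85454888-85455739 had a fold of 147 at 0 h, 188 at 6 h and 228 at 72 h, with summits 18405 to 18462 bp upstream. Another, with its summit 12102 bp downstream at 0 h, had folds of 147, 188 and 158. Both exceeded the start region, at 74.8, 81.4 and 92.9, in each list. A region 5043 bp upstream had folds of 87.7, 98.7 and 171. Strong regions missing at 72 h numbered 2, with folds of 9.83 and 10.6, and 1 with a fold of 16.4 was new.

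Fosb (chromosome 7, 19302696 to 19310118, minus strand) held 76, 71 and 70 regions in a window with 7 other coding genes, and 31, 27 and 24 of them lay in those genes and outside Fosb. Its highest region lay 10046 bp upstream at 0 h, with a fold of 159, followed by 191 and 200.0. Of the 49 stretches listed throughout, 8 ranked lower at 72 h by at least 20 points and 1 higher. Over all stretches 16.1% ranked lower and 16.3% higher. The number lower thus lay near the share of all stretches, and the number higher lay below it. The largest of these shifts was 30190 bp downstream of the start, with folds of 28.7, 36.2 and 4.68 and ranks of 74.9, 78.4 and 9.28. Another stretch, 27490 bp downstream, had folds of 83.2, 98.7 and 26.5 and ranks of 94.2, 94.4 and 67.9. Ranks at 0 h and 6 h were alike at both, and those at 72 h were the lowest. Neither was lost from the 72 h list, and the 2 strong regions lost in the window both had a fold of 6.80. Between the stretches at 30190 and 27490 bp lay 1 at 28194 bp with ranks of 55.3, 53.0 and 60.3, highest at 72 h.

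The Jun window (chromosome 4, 95049036 to 95052222, minus strand) was the sparsest, with 16, 13 and 12 regions; the ratio at 72 h was 0.750 (0.324 to 1.69). Covered length was 5031, 5368 and 3482 bp. The stretch over the start and the gene was made of 3, 1 and 3 regions in order of time. The region at the start was 2440, 3127 and 789 bp long, and at 72 h regions of 395 and 869 bp followed it inside the gene. The highest region away from the start, with its summit 31879 bp upstream at 0 h, had folds of 46.1, 69.3 and 74.2. None of the 9 stretches listed throughout moved by 20 points at either time.

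Junb (chromosome 8, 84976909 to 84978748, minus strand) held 57, 53 and 46 regions, of which 43, 40 and 31 lay in the 8 other coding genes of its window. Those outside them, 14, 13 and 15, did not follow the same order. Of the 6 strong regions lost at 72 h, 4 lay in other genes, and their folds at 0 h were 6.80 to 14.4; all 6 were listed at 6 h and none was gained. Of the 34 stretches listed throughout, 4 ranked higher at 72 h by at least 20 points and 3 lower. The largest shift was downward, 21893 bp upstream of the start, with folds of 17.4, 9.80 and 4.68 and ranks of 58.7, 33.3 and 9.28. Nearer to the start, a stretch 4184 bp upstream had folds of 7.56, 5.27 and 25.8 and ranks of 25.3, 9.15 and 67.1, and another at 6070 bp had folds of 12.1, 15.8 and 36.7 and ranks of 44.8, 53.0 and 75.8. These 2 stretches were highest at 72 h. Nearer still, a stretch 3228 bp downstream of the start ranked lowest at 72 h. It had folds of 15.9, 18.8 and 9.37 and ranks of 55.3, 59.3 and 34.8. Jund (chromosome 8, 70697739 to 70700616, plus strand) held 46, 44 and 43 regions, with 29, 26 and 28 in 5 other coding genes. The stretch over its annotated start had the largest shift of the window, with ranks of 6.65, 13.6 and 55.2.

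Batf and Jdp2 (chromosome 12, 85686720 to 85709087 and 85598656 to 85639878, both plus strand) are neighbours, and 17 regions of each list were counted in both windows. Batf held 36, 30 and 31 regions and Jdp2 43, 44 and 39. The highest Batf region lay within the gene, not at its start: its summit was 18961 bp into the gene at 0 h, with folds of 77.9, 85.1 and 135. A Batf stretch 24119 bp from the start, past the gene end, had folds of 8.32, 13.6 and 49.2 and ranks of 29.3, 46.9 and 81.7. Of the 27 stretches listed throughout at Jdp2, 9 ranked higher at 72 h by at least 20 points and 2 lower. Those higher at 60460, 60890, 75028 and 87987 bp from the first Jdp2 start lie past the gene and were also counted for Batf. The same holds for the lower one at 46734 bp. The stretch at 87987 bp lies 372 bp from the Batf start. The largest shift at Jdp2 was downward, at a stretch 33420 bp into the gene with folds of 26.5, 31.6 and 4.68 and ranks of 72.6, 75.2 and 9.28. Stretches 5937 and 24112 bp upstream of Jdp2 had folds of 54.6 and 57.8 at 72 h, after 15.1 and 15.9 at 0 h, and ranks of 83.7 and 84.7 after 53.4 and 55.3.

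Other genes of the pathway were counted from 3 lists. Of 39 other basic leucine zipper factors and cofactors, 0 held at least 1.5 times more regions at 72 h and 6 held fewer, with 31 called in neither direction and 2 with too few regions. The share with fewer was 27.0% of all windows and 15.8% of windows with at least 16 regions. The list's median ratio of 0.848 stood beside 0.833 over all windows and 0.867 over windows with at least 16 regions, so the median lay near both. The 4 with the lowest ratios were Hlf (15, 8 and 3 regions in order of time), Atf4, the factor of the integrated stress response (50, 37 and 29), Bach2, a repressor of lymphoid cells (54, 57 and 33), and Batf2 (22, 18 and 14). At 6 h Nfe2l3 held more (15 and 23) and 4 held fewer, Hlf, Crem, Crebzf and Atf1. The shares at 6 h were 3.14% with more and 4.79% with fewer of all windows. Among windows with at least 16 regions they were 0.577% and 0.904%. Hlf was the one gene of this list with fewer at both times. Batf3, the closest relative of Batf here, held 35, 40 and 38 regions, and Fosl1, which encodes Fra-1, held 47, 43 and 34.

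Of 34 kinases, phosphatases and other regulators upstream of AP-1, 1 held more regions at 72 h and 6 held fewer, and the median ratio was 0.901. The shares were 1.84% and 27.0% of all windows, and 1.24% and 15.8% of windows with at least 16 regions. The number with fewer thus lay below 27.0% and near 15.8%. The gene with more was Map3k8, the kinase Tpl2 that links Toll-like receptors to ERK, at 21, 20 and 32. The 6 with fewer included the 3 genes of the JNK kinases, which phosphorylate Jun. Mapk8 held 19, 18 and 11, Mapk9 held 23, 21 and 14, and Mapk10 held 4, 2 and 1. With so few regions Mapk10 passes the rule easily, and the JNK genes were not tested as a group. The start regions of Mapk8 and Mapk9 ranked at 78.8 and 84.0 at 0 h and at 85.5 and 89.7 at 72 h. The other 3 with fewer were Elk4 (31 and 20 at 0 h and 72 h), Map3k1 (26 and 17) and Rps6ka1 (65 and 43). At 6 h, Mapk10 alone was called, with fewer, where 4.79% of all windows held fewer.

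Of 15 other immediate early genes, 0 held more at 72 h and 2 held fewer, Klf4 (4, 4 and 2) and Klf10 (35, 34 and 23). The share with fewer was 27.0% of all windows and 15.8% of windows with at least 16 regions, and the list's median ratio was 0.964. At 6 h 0 were called in either direction, where 3.14% of all windows held more and 4.79% fewer. The lists were of different functions and sizes, and no test set them apart from other genes.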

How the data were processed

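The members and gene lists were chosen with earlier results of these data known. Peaks of each library were deposited by the authors as a list of its own, in mm10. The submitters' processing notes name BWA 0.7.17, MACS2 2.2.7 and bedtools 2.30.0. For options, duplicate handling and read shifts, no value is given in the sources used here. In a deposited line, the fold is the ratio of summit to background, and −log10 p-value and −log10 q-value follow; these authors' values were used to describe, rank or filter within a list.

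Regions were counted in gene spans of the RefSeq annotation of GRCm38.p6 with 50 kb flanks, with Python 3.11.15, pandas 2.3.3 and SciPy 1.17.1, and matched when they shared 1 bp. Counting was tested on simulated data. Starts came from the RefSeq promoter table, which covers 17492 of the 21887 coding genes. A window was called when its count differed by at least 1.5 times with at least 3 regions in the larger. Strong regions had a −log10 q of at least 7.82 at 0 h, 9.25 at 6 h and 13.0 at 72 h. Intervals (95%) were Clopper-Pearson for shares and from the exact binomial split for ratios. All 10 members are described. Pathway genes were named by their ratio (up to 4 per list and direction), and Batf3, Fosl1 and the remaining called genes after their values were seen. Other flanks, thresholds, overlaps and list sizes were tried as alternatives.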

Additional observations from a re-analysis of the deposited data

How the results depend on the processing

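Of 52 alternative values, 38 stayed within the interval of the reported one, or within 1.5 times for counts, 14 moved and 0 were reversed. For shares, reversal was not judged against the share of all regions, and some alternatives crossed that share, as given below. The ratio of region counts relative to all windows stayed within the reported interval under each of the 7 alternatives at both times, though at 72 h the alternative's own interval included 1 under the 4 named in the results. Lost strong regions at 6 h were 4.17% when 50% of a region had to be covered and 0% with 10 kb flanks, beside 4.23% and 2.48% of all regions. The members' share exceeded that of all regions when −log10 q had to reach 10 (0.885% against 0.837%, 2 regions) or the fold 10 (0.515% against 0.222%, 1 region). Regions gained at 6 h were 3.11% with that overlap, 0% with a fold of at least 10 and 0% without Creb5, beside 3.69%, 0.249% and 1.71% of all. At 72 h the lost share was 3.98% with a −log10 q of at least 10, 2.58% with a fold of at least 10 and 12.5% with the larger overlap, beside 10.5%, 6.22% and 21.7% of all regions. The gained share was 14.3% with the larger overlap, beside 14.1% of all. Without Creb5 it was 4.52%, below the 7.21% of all regions, where the reported 7.79% lay above it. Members with fewer regions at 6 h numbered 1 with 10 kb flanks (Jun). Those with more at 72 h numbered 1 with 10 kb flanks (Atf3), 2 in lists of equal size and 2 with a fold of at least 10 (Atf3 and Creb5 in both). No paired analysis was possible because each time had 1 library, and for the same reason no replicate could be left out. A list names no region below its lowest fold, so a missing region can hold weaker signal.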
